A study of Homo sapiens with 26 samples.

Results

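A549 cells exposed to TGF-beta 1 for 72 h were set against untreated A549 cells, the longest exposure of a time course on Affymetrix HG-U133 Plus 2.0 arrays. The arrays were chosen by their labels alone: 3 arrays labelled TGFB1 for 72 h and 3 labelled untreated, 6 of the 26 arrays of the series. A549 is a human lung adenocarcinoma line, so every array comes from 1 established line. In all groups used here the cells had been held in serum-free medium for 24 h. The 72 h group then received porcine TGF-beta 1 at 5 ng/mL for 72 h, and the untreated group received none. The 3 arrays taken after 24 h of the same treatment served as a second group to set the latest time against the time before it. The labels name no untreated culture kept for 72 h, so treatment and 72 h of further culture cannot be told apart.

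TGF-beta 1 is a secreted cytokine that binds a pair of receptor kinases, TGFBR2 and TGFBR1, which phosphorylate SMAD2 and SMAD3, and these enter the nucleus with SMAD4 and switch target genes on or off. In epithelial cells sustained exposure is known for epithelial-mesenchymal transition, in which cells give up E-cadherin junctions, take on N-cadherin and a stress-fibre cytoskeleton and lay down extracellular matrix. Untreated A549 cells are known for very high levels of aldo-keto reductases and other enzymes controlled by the transcription factor NRF2, since their NRF2 inhibitor KEAP1 is mutated.

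Levels are given on a log2 scale that carries the offset of the deposited values, on which zero signal lies at 6.64, the lowest possible value at 5.64 and the median of every array at 7.96. A change is the mean log2 level at 72 h minus that of untreated cells, ± the standard error from limma, with n = 3 arrays per group. Besides the genes for which it is given below, at least 1 probe set had the opposite sign for ACTG2, CDK6, COL4A4, CREB3L1, CREB3L2, CRTAP, DDR2, EGFR, EZR, FBLN1, PDLIM5, TAGLN and TLN1. Each change is that of 1 probe set per gene, and another of the same sign can be far smaller. Among such genes, the smallest change was -0.26 for APOH, -0.36 for CFB, -0.35 for FGA and -0.51 for AKR1C2. It was 0.43 for IGFBP7, 0.21 for LDLRAD4 and 0.17 for SKIL. Folds are given only where both groups lie above the array median, and the offset understates the change of weakly expressed genes. The 72 h arrays correlated with one another across genes at r 0.987 to 0.990 and the untreated arrays at 0.959 to 0.978, while pairs of a 72 h and an untreated array lay at 0.873 to 0.902. Between 30877 and 32676 of 54675 probe sets were detected on the 72 h arrays, against 29966 to 31904 on the untreated arrays. Actin signal at the 3' end over that at the 5' end, which depends on how intact the RNA is, was 1.00, 0.979 and 1.05 on the 72 h arrays, against 1.09, 1.07 and 1.13 on the untreated arrays. These ranges do not overlap, and the part of this difference in the results below was not tested.

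The label of an A549 epithelial line was checked with 14 genes. KRT8, KRT18, KRT7, AKR1C3 and ALDH1A1 were very high in both groups, of which KRT7 in untreated cells had the lowest mean (13.57). Of the 10 genes tested 9 passed, and only KRT7 was higher at 72 h. The larger falls were those of CDH1 (-4.26), EPCAM (-2.72), AKR1C2 (-2.65) and AKR1B10 (-1.69). The summed signal of the list was 1.255e+05 to 1.37e+05 at 72 h, against 1.884e+05 to 1.942e+05 in untreated cells. The alveolar markers SFTPB, NKX2-1 and SLC34A2 and the keratin KRT19 lay below the array median in both groups. The alveolar marker SFTPC lay just above it, at a mean of 8.31 at 72 h, against 8.28 untreated, and did not pass (adjusted p 0.939). Of 11 fibroblast markers, 7 were tested and 4 rose at 72 h (LUM, FAP, CDH11 and ACTA2), and the summed signal of the list was 5721 to 7086 at 72 h, against 2294 to 2941 in untreated cells. The fibroblast markers DCN, COL3A1, PDGFRA, PDGFRB, PRRX1 and TWIST1 lay below the array median in both groups. THY1 averaged 7.97 at 72 h, against 8.01 untreated, and did not pass (adjusted p 0.905). Of the endothelial markers 0 of 3 tested passed, and CDH5, ERG, EMCN, KDR and CLDN5 were below the median in both groups (summed signal 418 to 656 at 72 h, against 568 to 793). Of the leukocyte markers 3 of 6 tested passed: CSF1R was higher, and LYZ and ITGAM were lower, while PTPRC, MS4A1, CD14 and NKG7 lay below the median in both groups (summed signal 1013 to 1159 at 72 h, against 950 to 1897). Of the muscle markers 1 of 6 tested passed, ACTG2, and the summed signal was 1183 to 1263 at 72 h, against 747 to 1298 in untreated cells. In a culture measured in bulk, fewer cells of a kind and less RNA per cell cannot be told apart.

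Of 14771 genes tested, 5659 (38.3 percent) differed between 72 h and untreated cells at an adjusted p under 0.05, 2707 higher (18.3 percent) and 2952 lower (20.0 percent). These shares are the background against which the counts of each gene group below are to be read, and the median change of all tested genes was -0.02. The gene lists were chosen with earlier results of these data known. A list share beyond this background is thus a description of the list and not a test. A change of at least 2-fold was reached by 1690 genes (11.4 percent), 812 higher (5.5 percent) and 878 lower (5.94 percent). At least 8-fold, 98 genes were higher and 94 lower. For 49.7 percent of the tested genes all 72 h arrays lay beyond all untreated arrays. The p-values measure the spread between arrays, which the labels describe as repeats of the experiment. With 1 array left out the total lay between 4727 and 5193.

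The largest rises included secreted growth regulators, matrix genes and a transcription factor. IGFL1, an IGF-like secreted peptide, stood at 14.79, 14.58 and 14.62 on the 72 h arrays, against 7.21, 7.29 and 7.37 on the untreated arrays (change 7.37 ± 0.44, adjusted p 1.55e-11). It lay below the array median on every untreated array, and its family member IGFL2 rose by 5.83 ± 0.35 (adjusted p 1.71e-11). MAF, a large MAF bZIP transcription factor, stood at 13.73, 13.88 and 13.79 at 72 h, against 7.83, 7.24 and 6.55 untreated (6.59 ± 0.57, adjusted p 4.89e-09). The IGF-binding proteins IGFBP5 and IGFBP7 rose by 6.43 ± 0.58 (adjusted p 8.83e-09) and 6.41 ± 0.52 (adjusted p 2.14e-09). IGFBP5 stood at 14.21, 14.22 and 14.22 at 72 h, against 7.18, 9.15 and 7.04 untreated, where array 2 was the highest. Other large rises were those of IL11, the matrix genes SPOCK1, COL5A1, COL4A1 and CCDC80, the potassium channel KCNMA1, the cornified-envelope gene LCE3D and the granin SCG2, with changes of 5.00 to 6.21. Arrays that do not overlap were part of the rule for these 15 and for the 15 largest falls.

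The largest falls included secreted defence proteins, detoxifying enzymes and genes also made by liver. MUC5B, a gel-forming airway mucin, was at 5.64, 5.64 and 6.61 on the 72 h arrays, against 12.07, 13.80 and 13.46 on the untreated arrays. Its change of -7.14 ± 0.34 (adjusted p 3.11e-13) ends at or below zero signal at 72 h, so no fold is given. CCL20, a chemokine for CCR6-bearing leukocytes, was at the floor of 5.64 on all 3 arrays at 72 h, against 11.38, 10.70 and 12.08 untreated (-5.74 ± 0.70, adjusted p 8.49e-07). CYP4F11, a cytochrome P450, and VTN, the adhesive plasma protein vitronectin, likewise ended below zero signal on every 72 h array, with changes of -5.51 ± 0.23 and -5.00 ± 0.58. ALDH3A1, an aldehyde dehydrogenase, stood at 7.69, 6.88 and 8.13 at 72 h, against 14.35, 14.10 and 14.14 untreated (-6.63 ± 0.26, adjusted p 4.05e-14). CP, the copper carrier ceruloplasmin, the tetraspan protein gene TM4SF20 and LCN2, an iron-trapping lipocalin, fell as well (-6.35 ± 0.30, -6.04 ± 0.45 and -5.98 ± 0.44). The antiprotease SLPI, the tight-junction claudin CLDN2, the protease MMP7, the glutathione peroxidase GPX2, the neuropeptide NTS, the fibrinogen-like FGL1 and the cationic amino acid transporter SLC7A2 fell, with changes of -5.25 to -4.78.

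**Figure D1:**
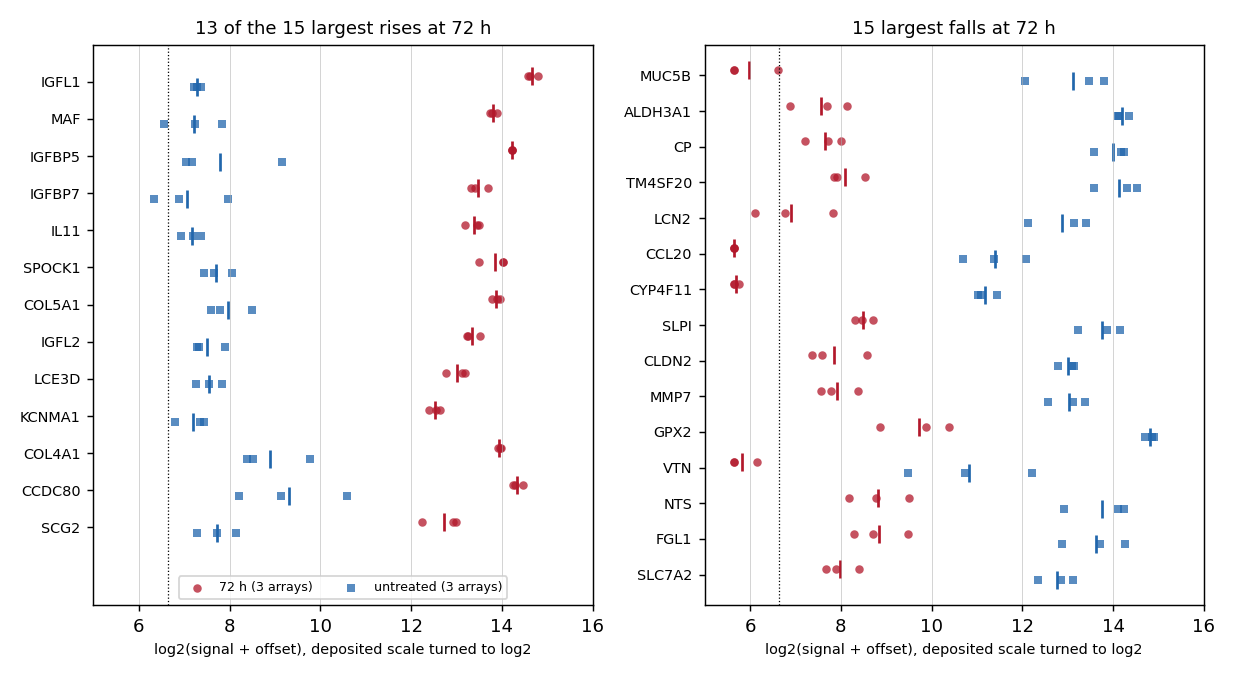
Log2 levels of 13 of the 15 genes with the largest rises (left) and the 15 with the largest falls (right) on each array; circles are the 3 arrays at 72 h, squares the 3 untreated arrays, ticks the group means, and the dotted line zero signal at 6.64. Genes were chosen among those whose groups do not overlap, and MUC5B, CCL20, CYP4F11 and VTN lie at or below zero signal at 72 h.

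Genes of the TGF-beta response were still high after 72 h. Of 28 known feedback and direct target genes, 26 were tested, 19 were higher and 0 lower, with a median change of 1.60. IL11, which encodes interleukin 11 and signals through gp130, stood at 13.45, 13.50 and 13.19 on the 72 h arrays, against 7.38, 6.92 and 7.19 on the untreated arrays (6.21 ± 0.46, adjusted p 4.49e-10). The spread within either group of IL11 was far under the change. SMAD7, the inhibitory SMAD that brings ubiquitin ligases to the receptor, stood at 12.13, 12.02 and 12.09 at 72 h, against 9.82, 9.27 and 9.25 untreated (2.63 ± 0.38, adjusted p 7.47e-06). The co-repressor SKIL rose by 1.90 ± 0.30 and JUNB, a subunit of AP-1, by 2.72 ± 0.22, which is 6.57-fold. PMEPA1 and LDLRAD4, membrane proteins that hold SMADs away from the receptor, rose by 2.97 ± 0.36 and 3.10 ± 0.30, and ANGPTL4, an inhibitor of lipoprotein lipase, rose by 4.38 ± 0.51. MYC, a gene known to be repressed by TGF-beta in many epithelia, stood at 12.57, 12.69 and 12.59 at 72 h, against 12.63, 12.89 and 12.98 untreated, and did not pass (-0.22 ± 0.18, adjusted p 0.355). At earlier times MYC was lower than in untreated cells at 1 h (-1.01, adjusted p 0.0046) and 8 h (-0.75, 0.0031). The same held at 16 h (-0.79, 0.0012) and 24 h (-0.65, 0.0060), but MYC did not pass at 0.5, 2 or 4 h.

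The 250 bases before the start sites of IL11 and SMAD7 are shown as promoters of targets that stayed high at 72 h, from RefSeq on GRCh38.p14, each 5' to 3' on its gene's strand. Capitals mark 4 motifs searched on both strands: CAGAC, the SMAD-binding box; TGANTCA, the AP-1 site; CAGGTG, the E-box bound by SNAI and ZEB repressors; and TGACNNNGC, the core of the antioxidant response element bound by NRF2. No matches of different motifs overlap in the sequences printed. Positions count back from the start site, at which -1 is the last base shown. IL11 (chr19:55370464-55370713, minus strand) holds GTCTG, the box on the other strand, from -125 to -121, and TGAGTCA from -96 to -90. SMAD7 (chr18:48950966-48951215, minus strand) holds CAGAC from -217 to -213 and from -128 to -124.
IL11: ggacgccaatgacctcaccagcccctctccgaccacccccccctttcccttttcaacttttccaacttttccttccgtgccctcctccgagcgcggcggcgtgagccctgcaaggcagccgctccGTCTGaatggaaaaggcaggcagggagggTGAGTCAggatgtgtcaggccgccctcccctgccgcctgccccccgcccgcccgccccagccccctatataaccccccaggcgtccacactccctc
SMAD7: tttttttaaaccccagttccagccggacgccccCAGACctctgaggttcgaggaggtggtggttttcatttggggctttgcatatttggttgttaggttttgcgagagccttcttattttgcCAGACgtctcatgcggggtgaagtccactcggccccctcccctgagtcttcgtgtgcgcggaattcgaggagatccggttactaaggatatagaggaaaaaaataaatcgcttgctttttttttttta
Of all 27305 promoters of that length in the table, 37.8 percent held CAGAC, 6.6 percent TGANTCA, 17.5 percent CAGGTG and 11 percent TGACNNNGC. Of the 11355 tested genes with a promoter, 36.1 percent held CAGAC, 4.2 percent TGANTCA, 16.4 percent CAGGTG and 11.9 percent TGACNNNGC. Of the 15 largest rises 10 had a promoter in the table, and 4 of these held CAGAC, 1 TGANTCA, 1 CAGGTG and 0 TGACNNNGC. Of the 15 largest falls 9 had one, and 4 held CAGAC, 3 TGANTCA, 3 CAGGTG and 2 TGACNNNGC. A match of letters is a description of the window and not a measured site.

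Among the ligands, receptors and SMADs of the superfamily, 40 of 46 genes were tested, 16 were higher and 6 lower, with a median change of 0.24. INHBA and INHBB, which encode the activin A and activin B chains, moved in opposite directions. INHBA stood at 10.36, 10.97 and 10.42 at 72 h, against 6.39, 5.64 and 6.66 untreated, which is near or below zero signal (4.35 ± 0.43, adjusted p 4.38e-08). INHBB stood at 7.21, 7.38 and 7.89 at 72 h, against 12.06, 12.38 and 11.95 untreated (-4.64 ± 0.36, adjusted p 1.04e-09). The groups are apart in each gene. The ligand BMP2 rose by 4.01 ± 0.28 (16.1-fold), and the antagonists NOG, a BMP trap, and FST, an activin trap, rose by 2.57 ± 0.25 and 2.40 ± 0.62. TGFB1, the ligand given, rose by 1.36 ± 0.29 in the cells' own RNA (adjusted p 0.00065), and LTBP2, a latent-complex and microfibril protein, rose by 3.48 ± 0.29. Of the receptors, TGFBR1 averaged 14.09 ± 0.15 at 72 h, against 12.57 ± 0.21 untreated (SD, n = 3 each), and the groups did not overlap (1.52 ± 0.21, adjusted p 3.34e-06). TGFBR2 stood at 12.71, 12.88 and 12.80 at 72 h, against 12.96, 13.62 and 13.29 untreated, and did not pass although the arrays do not overlap (-0.49 ± 0.24, adjusted p 0.112). It passed with the mean of its probe sets (-0.76, adjusted p 0.0186) and in a fit of only the groups compared (adjusted p 0.0313). SMAD3 did not pass (-0.09 ± 0.27, adjusted p 0.829). All 4 of its probe sets that passed the filter were negative, from -1.27 to -0.09, and the one used changed least.

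More genes of epithelial adhesion fell than rose. Of 48 genes of epithelial adhesion and identity 45 were tested, of which 23 were lower and 9 higher, with a median change of -0.41. Of all tested genes 20.0 percent were lower and 18.3 percent higher. CDH1, which encodes E-cadherin of the adherens junction, stood at 9.18, 8.31 and 9.01 on the 72 h arrays, against 13.10, 13.09 and 13.09 on the untreated arrays (-4.26 ± 0.17, 19.1-fold, adjusted p 4.05e-14). EPCAM, an epithelial adhesion molecule, stood at 8.60, 8.42 and 8.30 at 72 h, against 11.16, 10.96 and 11.36 untreated (-2.72 ± 0.29, adjusted p 1.07e-07). Both fell beyond the spread of their arrays but stayed above the array median. The largest fall of the group was that of CLDN2, a pore-forming claudin, to 7.58, 7.36 and 8.59 at 72 h, against 12.78, 13.08 and 13.13 untreated. ERBB3, a receptor for neuregulins, fell by 3.75 ± 0.15, the epithelial ETS factor ELF3 by 3.51 ± 0.35, and the adhesion glycoproteins CEACAM6 and CEACAM1 by 3.32 ± 0.27 and 2.85 ± 0.26. The CEACAM genes are close paralogs whose probe sets may share signal. The 9 members that rose were the desmosomal cadherins DSC2 (2.29) and DSG2 (0.73), the desmosomal plaque gene DSP (0.81), the claudins CLDN4 (1.90) and CLDN1 (1.31), the catenins CTNNB1 (1.01) and CTNNA1 (0.33), the scaffold TJP1 (0.48) and CDS1 (1.00), an enzyme of phospholipid synthesis. These were named after their values were seen, as members that moved against the name of their group. These 9 did not share the fall of CDH1, and their number lies near the share of all tested genes that were higher.

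Of the keratins, the intermediate filaments of epithelia, 10 of 14 were tested, 5 were lower and 3 higher, with a median change of -0.04. The main simple-epithelial pair changed little: KRT8 stood at 14.28, 14.19 and 14.26 at 72 h, against 14.80, 14.40 and 14.51 untreated (-0.33 ± 0.08, adjusted p 0.00156). KRT18, its partner, stood at 14.98, 14.86 and 14.97 at 72 h, against 15.22, 15.17 and 15.23 untreated (-0.27 ± 0.04, adjusted p 2.06e-05). Both passed the test at changes of 1.26-fold and 1.21-fold. KRT7 rose by 0.61 ± 0.16, KRT80 by 0.93 ± 0.31 and KRT81 by 0.33 ± 0.10. Without untreated replicate 2 a single keratin was higher, since KRT80 and KRT81 then missed the threshold (0.54, adjusted p 0.163, and 0.22, adjusted p 0.0813). KRT80 also missed it without untreated replicate 3 (0.0549) or 72 h replicate 1 (0.0671). KRT10 fell (-0.31), named after its value was seen. KRT4 and KRT15 fell, to levels around or below zero signal at 72 h.

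Mesenchymal markers rose for the most part. Of 24 such genes 22 were tested, 13 were higher and 2 lower, with a median change of 0.95. CDH2, which encodes N-cadherin, stood at 11.36, 11.77 and 11.84 at 72 h, against 8.62, 7.29 and 7.83 untreated (3.74 ± 0.27, adjusted p 3.99e-10). CDH11, the cadherin of osteoblasts and fibroblasts, stood at 10.83, 11.42 and 10.83 at 72 h, against 7.86, 7.88 and 8.04 untreated (3.10 ± 0.24, adjusted p 7.1e-10). The groups are more than 2 log2 units apart for both cadherins. VIM, the mesenchymal intermediate filament vimentin, was high already in untreated cells and rose by 0.88 ± 0.14, which is 1.84-fold (adjusted p 3.06e-05). FN1, the matrix protein fibronectin, rose by 1.85 ± 0.26 to 14.98, 14.86 and 14.88 at 72 h, against 12.40, 13.85 and 12.92 untreated. The fibronectin receptor chain ITGA5 rose by 1.90 ± 0.30, the urokinase receptor PLAUR by 1.74 ± 0.20 and the ectonucleotidase NT5E by 1.46 ± 0.13. The 2 lower members, named after their values were seen, were the collagen receptor DDR2 (-0.80) and the calcium-binding S100A4 (-0.53). In 4 of the 6 fits with 1 array left out, namely without untreated replicate 1 or 2 or 72 h replicate 1 or 3, 1 of them was lower.

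Of 17 transcription factors tied to the transition 13 were tested, 7 were higher and 3 lower, with a median change of 0.49. SNAI2, which encodes SLUG, a repressor of CDH1, stood at 11.79, 12.01 and 11.99 at 72 h, against 7.59, 7.89 and 7.02 untreated (4.43 ± 0.34, adjusted p 1e-09). ZEB1, another repressor, stood at 9.82, 10.00 and 10.15 at 72 h, against 8.20, 8.58 and 8.83 untreated (1.45 ± 0.28, 2.74-fold, adjusted p 0.000217). The other ZEB1 probe set that passed the filter was flat, at -0.03. SNAI1, which encodes SNAIL, stood at 8.26, 7.89 and 7.64 at 72 h, against 7.48, 8.10 and 8.03 untreated, and did not pass (0.06 ± 0.27, adjusted p 0.886). Its sign turned without untreated replicate 1 (-0.13) and without 72 h replicate 1 (-0.11). HMGA2, an architectural chromatin protein, rose by 2.98 ± 0.28, TCF4 by 1.33 ± 0.24 and TCF3 by 0.97 ± 0.14, both E-proteins, whereas TWIST2 fell by 1.18 ± 0.19. Of 11 TCF3 probe sets 8 had the same sign, and the lowest was at -0.58. SOX9 was lower as well (-0.52) and was named after its value was seen. The 3 lower members became 1 or 2 in every fit with 1 array left out, and 1 without untreated replicate 3 or without 72 h replicate 3. With the mean of probe sets, or at an adjusted p under 0.01, 1 was lower. The other TWIST2 probe set that passed the filter was flat, at -0.03. ZEB2 stood at 7.32, 7.34 and 7.24 at 72 h, against 6.81, 6.88 and 6.36 untreated, and TWIST1 at 7.25, 6.54 and 6.95, against 7.02, 7.02 and 6.89. Both lay below the array median in all 6 arrays and were not tested.

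**Figure D2:**
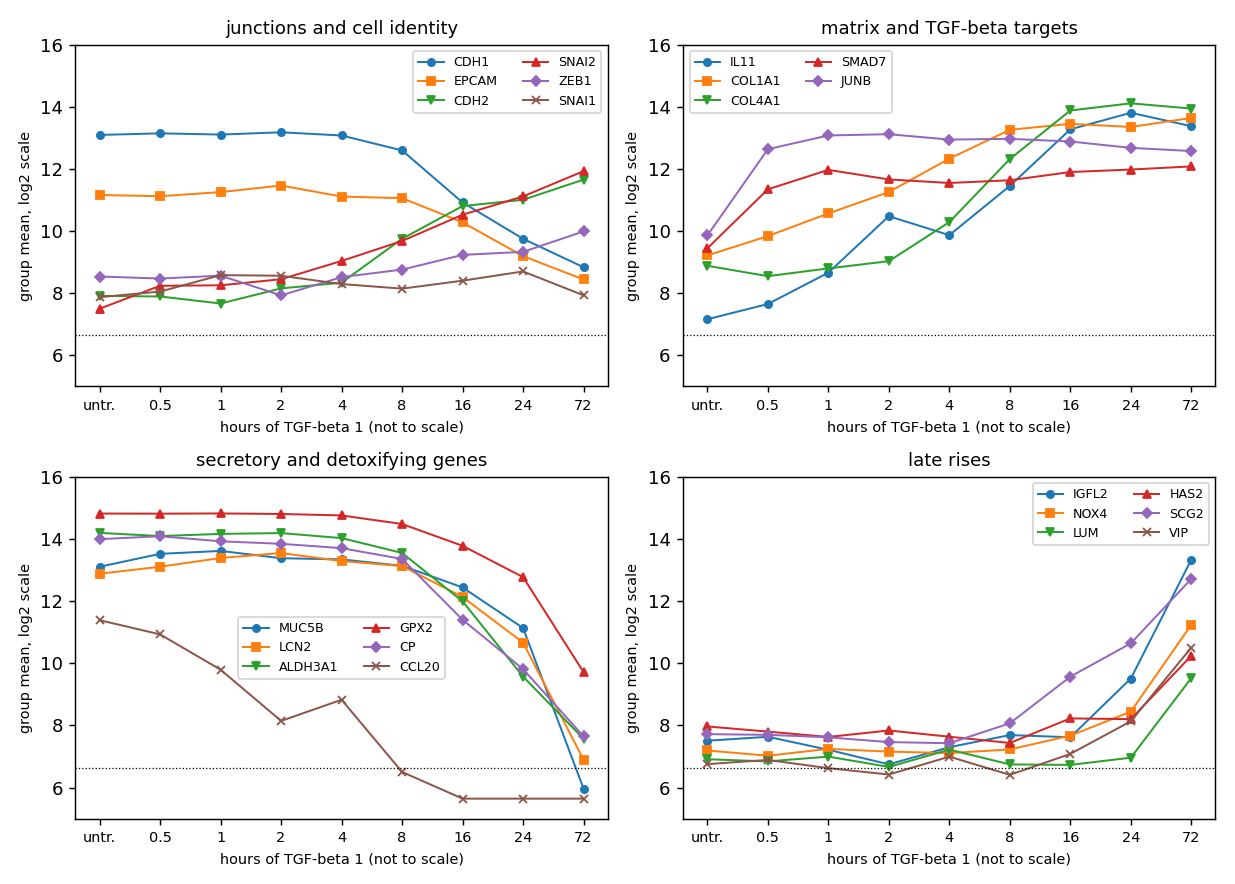
Group means of log2 level for selected genes from untreated cells through 72 h of TGF-beta 1, 3 arrays per point (2 arrays at 2 h); times are evenly spaced and not to scale, and the dotted line is zero signal. CDH1 and EPCAM are lowest and CDH2, SNAI2 and ZEB1 highest at 72 h, while SNAI1 ends near its untreated level.

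Matrix genes were among the largest rises. Of the 18 interstitial collagen genes 11 were tested, 5 were higher and 0 lower, with a median change of 0.43. COL1A1, the main chain of type I collagen, stood at 13.62, 13.44 and 13.86 at 72 h, against 9.20, 9.17 and 9.26 untreated (4.43 ± 0.42, 21.5-fold, adjusted p 1.81e-08). COL5A1, a type V chain that nucleates type I fibrils, stood at 13.96, 13.88 and 13.79 at 72 h, against 8.50, 7.78 and 7.59 untreated (5.92 ± 0.50, adjusted p 3.21e-09). COL1A2, the partner chain of COL1A1, had a change of -0.16 and did not pass, and COL3A1 lay near zero signal in both groups. COL7A1, of the anchoring fibrils, rose by 1.73 ± 0.21, COL5A2 by 1.23 ± 0.19 and COL27A1 by 0.88 ± 0.19. With the mean of its probe sets COL27A1 missed the threshold (0.23, adjusted p 0.173). For COL1A1, 4 of the 5 probe sets that passed the filter had the same sign, and the fifth was at -0.01.

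In the basement membrane 20 of 22 genes were tested, 9 were higher and 3 lower, with a median change of 0.34. COL4A1 and COL4A2, the main chains of type IV collagen, lie head to head on chromosome 13 and share 1 promoter region. COL4A1 stood at 13.95, 13.91 and 13.97 at 72 h, against 9.76, 8.38 and 8.51 untreated (5.06 ± 0.43, adjusted p 3.48e-09). COL4A2 stood at 14.10, 14.15 and 14.03 at 72 h, against 10.56, 8.81 and 9.40 untreated (4.51 ± 0.49, adjusted p 1.52e-07). In both genes untreated array 1 was the highest and array 2 the lowest untreated value. The minor chains COL4A3 and COL4A4, another head-to-head pair, rose by 1.46 ± 0.16 and 1.81 ± 0.12. The laminin chains LAMB3 and LAMA3 had changes of 0.41 and -0.24 and did not pass. COL15A1 rose by 1.97 ± 0.28. The 3 lower members, named after their values were seen, were COL4A6, a minor type IV chain, NID2 (-0.99), which encodes nidogen 2, and the laminin chain LAMA2 (-0.70). The stretch between the start sites of COL4A1 and COL4A2 is shown because both genes moved together, from RefSeq on GRCh38.p14, chr13:110307158-110307283, 126 bases on the plus strand. Capitals mark CCAAT, searched on both strands. It is present in 33 percent of all promoters in the table, whose windows of 250 bases are longer than this stretch. COL4A1 runs to the left of the stretch and COL4A2 to the right.
COL4A1-COL4A2: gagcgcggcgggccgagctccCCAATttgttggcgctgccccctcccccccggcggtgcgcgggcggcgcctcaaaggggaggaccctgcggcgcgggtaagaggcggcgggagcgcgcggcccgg

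Of 43 matrix glycoproteins and proteoglycans 35 were tested, 21 were higher and 4 lower, with a median change of 1.11. SPOCK1, a testican proteoglycan, stood at 14.02, 14.03 and 13.50 at 72 h, against 8.04, 7.66 and 7.43 untreated (6.14 ± 0.33, adjusted p 3.79e-12). THBS1, thrombospondin 1, an activator of latent TGF-beta, stood at 13.70, 13.56 and 13.74 at 72 h, against 9.40, 8.56 and 8.82 untreated (4.74 ± 0.35, adjusted p 4.49e-10). The groups are over 4 log2 units apart in both. The glypican GPC6 rose by 3.00 ± 0.31 (8.02-fold) and LUM, the collagen-binding proteoglycan lumican, by 2.61 ± 0.27, its untreated arrays lying near zero signal. VTN, described above, was the largest of the 4 falls, and the others, named after their values were seen, were SRGN (-1.64) and the fibulins FBLN1 (-0.82) and FBLN5 (-0.77). Among the enzymes that modify and crosslink collagen, 20 of 23 were tested, 10 were higher and 4 lower, with a median change of 0.39. The lysyl oxidases LOXL2 and LOX rose by 3.46 ± 0.80 and 2.89 ± 0.28, the prolyl 4-hydroxylase subunits P4HA3 and P4HA2 by 3.15 ± 0.34 and 1.91 ± 0.10, the prolyl 3-hydroxylase P3H2 by 2.25 ± 0.26 and the procollagen C-proteinase BMP1 by 1.94 ± 0.17. One of the LOXL2 probe sets moved the other way (-0.23). The 4 lower members, named after their values were seen, were FKBP10 (-0.61), LOXL4 (-0.58), LOXL3 (-0.49) and CRTAP (-0.48), and they became 2 without untreated replicate 1, untreated replicate 2 or 72 h replicate 3.

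Proteases and their inhibitors rose more often than they fell. Of 39 such genes 35 were tested, 17 were higher and 4 lower, with a median change of 0.44. The share higher lies above the 18.3 percent of all tested genes, and the share lower under their 20.0 percent. MMP10, stromelysin 2, stood at 10.24, 11.34 and 11.33 at 72 h, against 6.89, 6.81 and 6.23 untreated (4.32 ± 0.40, adjusted p 1.62e-08). MMP7, matrilysin, an enzyme of epithelia, stood at 7.56, 7.79 and 8.39 at 72 h, against 12.57, 13.38 and 13.11 untreated (-5.11 ± 0.22, adjusted p 8.23e-14). These metalloproteinase genes lie on chromosome 11 and moved in opposite directions. ADAM19 and ADAMTS6, metalloproteinases with a disintegrin domain or thrombospondin repeats, rose by 4.13 ± 0.27 and 3.81 ± 0.22, and the antiprotease SLPI fell by 5.25 ± 0.29. The other falls, named after their values were seen, were SERPINB7 (-1.34) and TFPI (-1.01), the tissue factor pathway inhibitor. One of the 2 ADAM19 probe sets was flat, at 0.03. Of the integrin chains 15 of 18 were tested, 8 were higher and 1 lower, with a median change of 0.29. The collagen receptor chains ITGA11 and ITGA2 rose by 3.68 ± 0.24 and 2.53 ± 0.22. ITGB6 and ITGAV, which pair as a receptor that activates latent TGF-beta, rose by 2.17 ± 0.27 and 1.42 ± 0.16, whereas ITGB5, another partner of ITGAV, fell by 1.04 ± 0.11.

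The actin cytoskeleton list shifted upward in smaller steps. Of 49 genes 46 were tested, 26 were higher and 5 lower, with a median change of 0.45. TAGLN, the actin-binding SM22 alpha of smooth muscle, stood at 11.50, 11.34 and 10.97 at 72 h, against 8.01, 7.57 and 7.72 untreated (3.50 ± 0.42, adjusted p 5.69e-07). ACTA2, smooth muscle alpha-actin, stood at 11.39, 11.64 and 11.51 at 72 h, against 10.81, 10.95 and 10.66 untreated (0.71 ± 0.16, adjusted p 0.00129). ACTA2 thus changed by 1.63-fold, but with the mean of its probe sets the change was 0.11 and missed the threshold (adjusted p 0.46). CNN1, another smooth muscle marker, was not tested because of its low values. MYOCD, the co-activator myocardin, rose by 2.94 ± 0.58, the SMAD and focal adhesion partner TGFB1I1 by 2.26 ± 0.56 and the LIM protein FHL2 by 1.66 ± 0.18. MYLK, myosin light chain kinase, stood at 7.75, 8.04 and 8.06 at 72 h, against 10.94, 10.86 and 10.87 untreated (-2.94 ± 0.21, adjusted p 3.35e-10), although 1 of its 3 probe sets was at 0.11. The actin-bundling SYNPO2 fell by 1.77 ± 0.43, and the other falls, named after their values were seen, were PDLIM5 (-1.56), TLN1 (-0.80), which encodes talin, and EZR (-0.76), which encodes ezrin. MYH11, DES and LMOD1, other muscle genes, stayed below the array median in both groups.

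**Figure D3:**
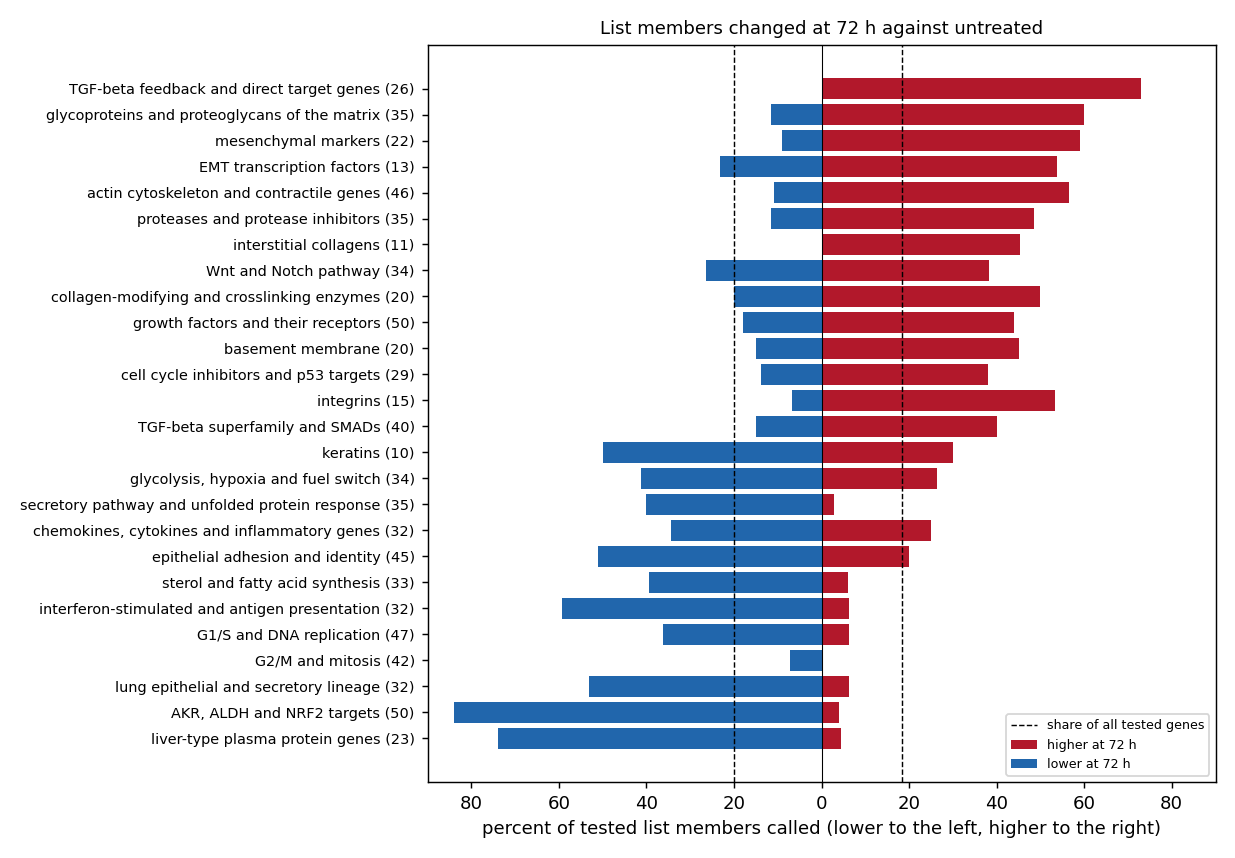
Percent of the tested members of each gene list called higher (red, to the right) or lower (blue, to the left) at 72 h against untreated cells, with the number tested in brackets; lists run from the highest median change at the top to the lowest, and dashed lines mark the shares of all tested genes, 18.3 percent higher and 20.0 percent lower. The TGF-beta target list lies farthest to the right, with 19 of 26 higher, and the list of aldo-keto reductases, aldehyde dehydrogenases and NRF2 targets farthest to the left, with 42 of 50 lower.

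Genes of the secretory airway lineage were lower. Of 45 lung epithelial and secretory genes 32 were tested, 17 were lower and 2 higher, with a median change of -0.77. Among the mucins, MUC5AC stood at 7.24, 6.92 and 7.45 at 72 h, against 10.31, 11.74 and 12.31 untreated (-4.25 ± 0.36, adjusted p 3.21e-09), alongside the fall of MUC5B. The epithelial ETS factor EHF stood at 7.74, 7.39 and 8.51 at 72 h, against 12.03, 12.57 and 12.56 untreated (-4.50 ± 0.38, adjusted p 4.11e-09). SOX2, a progenitor factor of the airway, stood at 8.02, 7.89 and 8.30 at 72 h, against 11.92, 12.19 and 12.09 untreated (-3.99 ± 0.58, adjusted p 8.79e-06). All groups were apart in these 3 genes, although 1 of 3 SOX2 probe sets moved the other way (0.33). AGR2, a protein disulfide isomerase needed for mucin, fell by 3.75 ± 0.30 (13.4-fold) and stayed above 10 on each 72 h array. The 2 higher members were CAV1 (0.88) and CAV2 (0.98), which encode caveolins of the type I alveolar cell and were named after their values were seen. With untreated replicate 3, 72 h replicate 1 or 72 h replicate 2 left out, 1 of them was higher.

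Of 31 genes that liver secretes into plasma, or that are typical of hepatocytes, 23 were tested, 17 were lower and 1 higher, with a median change of -1.81. APOH, apolipoprotein H, stood at 7.39, 7.73 and 7.74 at 72 h, against 11.29, 13.38 and 12.53 untreated (-4.78 ± 0.57, adjusted p 5.55e-07). The fibrinogen chain genes FGA, FGB and FGG, neighbours on chromosome 4, fell, with changes of -4.37 ± 0.45, -3.67 ± 0.48 and -3.62 ± 0.42. The tetraspan gene TM4SF4 fell by 4.71 ± 0.40 and the complement factor CFB by 3.79 ± 0.32. Untreated array 1 was the lowest untreated array for APOH, FGA, FGB, FGG, TM4SF4 and CFB, and still lay above every 72 h array. The member that was higher, C4BPB (1.66), a chain of the complement C4b-binding protein, was not called without untreated replicate 1.

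The detoxifying programme of A549 cells was lower almost throughout. Of 50 aldo-keto reductases, aldehyde dehydrogenases and NRF2 targets, all 50 were tested, 42 were lower and 2 higher, with a median change of -1.09. GPX2, a selenium-dependent glutathione peroxidase, stood at 9.89, 8.87 and 10.39 at 72 h, against 14.70, 14.89 and 14.87 untreated (-5.10 ± 0.22, adjusted p 8.23e-14). The spread within both groups of GPX2 was small beside the change. The export pump ABCC2 fell by 2.80 ± 0.35, the iron-binding protein gene PIR by 2.59 ± 0.17 and the steroid-reducing AKR1C2 by 2.65 ± 0.28. AKR1C2 shares most of its sequence with AKR1C1 and AKR1C3, so its probe sets may share signal with theirs. The glutamate-cysteine ligase subunits GCLM and GCLC, which make the glutathione precursor, fell by 1.89 and 1.85. NFE2L2, the gene of NRF2 itself, fell by 0.78. The 2 members that rose, named like GCLM, GCLC and NFE2L2 after their values were seen, were HMOX1 (1.77), heme oxygenase 1, and ALDH1A3 (0.65), a retinaldehyde dehydrogenase.

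The 250 bases before the start sites of GPX2 and GCLM are shown as promoters of this group that hold TGACNNNGC, from RefSeq on GRCh38.p14, 5' to 3' on the gene's strand, with all 4 motifs in capitals as above. GPX2 (chr14:64942746-64942995, minus strand) holds GCTAAGTCA, the element on the other strand, from -122 to -114, CAGGTG from -141 to -136 and GTCTG from -185 to -181. GCLM (chr1:93909431-93909680, minus strand) holds GCTTAGTCA from -34 to -26.
GPX2: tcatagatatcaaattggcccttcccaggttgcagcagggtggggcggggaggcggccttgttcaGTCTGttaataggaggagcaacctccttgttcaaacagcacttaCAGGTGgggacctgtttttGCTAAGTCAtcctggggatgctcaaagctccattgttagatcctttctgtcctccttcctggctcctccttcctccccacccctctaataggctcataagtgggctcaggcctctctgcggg
GCLM: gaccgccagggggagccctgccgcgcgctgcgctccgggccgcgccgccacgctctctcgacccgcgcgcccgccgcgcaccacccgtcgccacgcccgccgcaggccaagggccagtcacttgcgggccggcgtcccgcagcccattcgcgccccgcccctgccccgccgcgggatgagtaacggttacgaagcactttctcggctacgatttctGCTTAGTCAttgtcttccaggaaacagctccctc
Of the 42 lower members 34 had a promoter in the table, and 9 of these, 26.5 percent, held TGACNNNGC in the window, against 11.9 percent of the 11355 tested genes with a promoter. The genes were put on the list as known NRF2 targets, so this share is a description of the list.

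Of 48 genes of G1/S and DNA replication 47 were tested, 17 were lower and 3 higher, with a median change of -0.60. Of 42 genes of G2/M and mitosis, all tested, 3 were lower and 0 higher, with a median change of -0.76, and 39 did not pass. TK1, thymidine kinase, stood at 10.26, 9.39 and 9.36 at 72 h, against 12.54, 10.31 and 11.32 untreated (-1.73 ± 0.56, adjusted p 0.0181). ECT2, an exchange factor needed for cytokinesis, stood at 11.05, 10.40 and 10.72 at 72 h, against 12.77, 11.63 and 12.35 untreated (-1.52 ± 0.28, adjusted p 0.000169). In both genes the untreated arrays spread by over 1, with array 1 highest and array 2 lowest. The replication factors E2F8, E2F2 and POLE2 fell by 1.59 ± 0.33, 1.38 ± 0.36 and 1.30 ± 0.30, and CCND3, cyclin D3, by 1.52 ± 0.18. CDK6, the kinase partner of D cyclins, rose by 1.33 ± 0.18, and the other 2 higher members, named after their values were seen, were CCND1 (1.02), cyclin D1, and GINS3 (0.83), of the replicative helicase. The mitotic kinase gene PBK fell by 1.59 ± 0.45 and the phosphatase gene CDC25B by 0.67 ± 0.23.

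The counts of these 2 lists depended on single arrays and on how the experiments were blocked. The list median of the G1/S genes, taken over the untreated mean, was -0.52, -0.65 and -0.72 on the 72 h arrays, against 0.68, -0.55 and -0.13 on the untreated arrays. That of the G2/M genes was -0.00, -1.04 and -1.22 at 72 h, against 0.96, -1.11 and 0.15 untreated. The groups overlap in both lists, since untreated array 2 lies below 72 h array 1 in each. The number of G1/S genes lower was 8 without untreated replicate 1 and 31 without untreated replicate 2. The number of G2/M genes lower was 1 without untreated replicate 1, 12 without untreated replicate 2 and 8 without 72 h replicate 1. It was 9 with the experiment as a block, and 21 with untreated numbers 2 and 3 exchanged in that block. The array names of these 2 run in the opposite order to the other groups. At 0.5, 1, 4, 8 and 16 h the G2/M median of experiment 3 was -1.64, -1.13, -1.37, -1.475 and -1.59, below the other arrays of each time. TK1 missed the threshold without untreated replicate 1 (adjusted p 0.132) or 72 h replicate 2 or 3 (0.0642 and 0.0656), PBK without untreated replicate 1 (0.0644), and CDC25B without untreated replicate 1 or 3 or 72 h replicate 2 or 3 (0.0757 to 0.0864). Of 30 inhibitors of the cycle and p53 targets 29 were tested, 11 were higher and 4 lower (7 lower with the experiment as a block), with a median change of 0.31. CDKN1A, which encodes p21, rose by 1.17 ± 0.22 (2.25-fold), to 13.02, 13.12 and 13.29 at 72 h, against 11.67, 12.57 and 11.68 untreated. CDKN1B, which encodes p27, fell by 1.17 ± 0.13, and TOB1, an antiproliferative protein, by 1.38 ± 0.25. CCNG1, a cyclin G gene, was lower as well (-0.69) and was named after its value was seen. The stress genes GADD45B, TP53I3, SERTAD1 and TP53INP1 rose by 1.41 to 1.88, although the other probe set of TP53INP1 moved the other way (-0.83). CDKN2B, which encodes p15 and is a known TGF-beta target elsewhere, stood at 6.95, 6.04 and 7.13 at 72 h, against 6.81, 6.30 and 6.92 untreated, near zero signal, and was not tested.

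**Figure D4:**
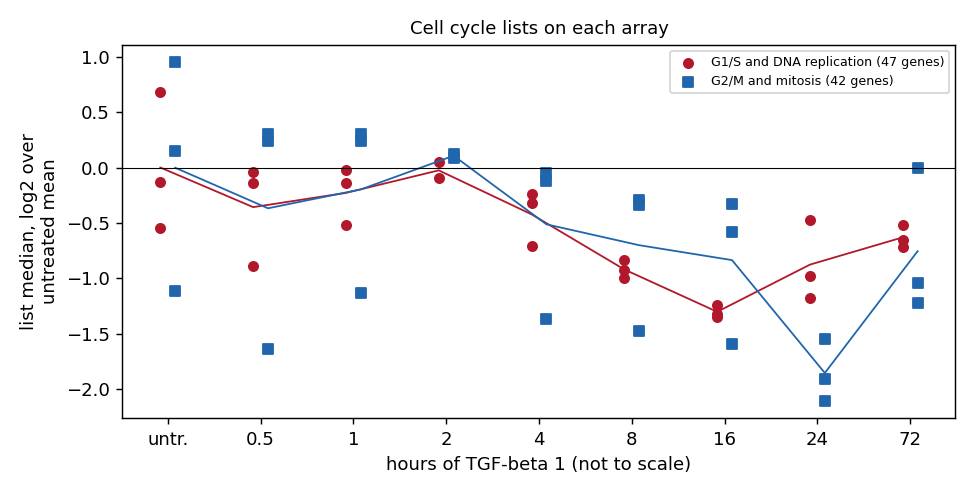
Median over the tested genes of 2 cell cycle lists of each array's log2 level minus the untreated mean, for untreated cells and each time of TGF-beta 1 exposure; points are arrays, lines join group means, and times are not to scale. The G1/S arrays lie at -0.52 to -0.72 at 72 h, and in both lists the 72 h arrays overlap the untreated ones.

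Inflammatory genes were divided. Of 39 chemokines, cytokines and related genes 32 were tested, 11 were lower and 8 higher, with a median change of -0.21, and 7 were lower without untreated replicate 3 or without 72 h replicate 2. Beside CCL20, the neutrophil attractant CXCL5 stood at 9.41, 9.43 and 9.24 at 72 h, against 12.97, 13.13 and 13.05 untreated (-3.69 ± 0.23, adjusted p 3.35e-11). PTGS2, cyclooxygenase 2, stood at 8.92, 9.04 and 9.17 at 72 h, against 11.35, 12.57 and 12.31 untreated (-3.03 ± 0.40, adjusted p 2.55e-06). CXCL3 fell by 2.56 ± 0.39. IL11, described above, and TNFRSF12A, the receptor of TWEAK, rose, the second by 2.35 ± 0.23 to 13.01, 13.20 and 13.02 at 72 h, against 10.74, 10.62 and 10.82 untreated. CXCL8, an attractant of the same family as CXCL5, had a change of -0.13 and did not pass.

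Growth factor and receptor genes changed in both directions, and more of them rose. Of 53 genes 50 were tested, 22 were higher and 9 lower, with a median change of 0.36. KIT and its ligand KITLG fell together: KIT stood at 6.73, 7.49 and 7.19 at 72 h, against 10.77, 11.75 and 11.21 untreated (-4.11 ± 0.49, adjusted p 5.09e-07). KITLG stood at 8.37, 7.97 and 8.22 at 72 h, against 11.29, 11.30 and 10.74 untreated (-2.92 ± 0.25, adjusted p 4.53e-09). EPHB2, a receptor for ephrin-B ligands, stood at 12.13, 12.18 and 12.01 at 72 h, against 8.73, 8.40 and 8.72 untreated (3.49 ± 0.31, 11.2-fold, adjusted p 6.32e-09). The ERBB receptors split, with ERBB3 lower by the value given above and EGFR higher (2.14), the second named after its value was seen. In the Wnt and Notch list 34 of 39 genes were tested, 13 were higher and 9 lower, with a median change of 0.40. The ubiquitin ligase gene RNF43 fell by 2.80 ± 0.30 (adjusted p 1.47e-07), AXIN2, a scaffold of beta-catenin degradation, by 2.11 ± 0.33 and the Wnt inhibitor DKK1 by 1.63 ± 0.43. The receptor FZD7 fell by 1.56 ± 0.16. The secreted antagonist SFRP1 rose by 1.85 ± 0.13 and the related DKK3 by 2.13 ± 0.22.

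Of 34 genes of sterol and fatty acid synthesis 33 were tested, 13 were lower and 2 higher, with a median change of -0.42. DHCR7, a late reductase of cholesterol synthesis, fell by 1.20 ± 0.26, the fatty acid elongase ELOVL6 by 1.11 ± 0.22 and the isoprenoid enzyme IDI1 by 1.09 ± 0.23. The acyl-CoA synthetase ACSL1 rose by 1.67 ± 0.27; the other rise, that of ACLY (0.26), was not called without untreated replicate 2 or 3 or 72 h replicate 3. Of 36 genes of glycolysis, hypoxia and fuel choice 34 were tested, 14 were lower and 9 higher, with a median change of -0.14. PDK4, which blocks pyruvate entry into mitochondria, stood at 8.10, 7.72 and 8.04 at 72 h, against 11.28, 12.66 and 12.19 untreated (-4.09 ± 0.37, adjusted p 1.1e-08). SLC2A3, a glucose transporter, stood at 11.41, 11.83 and 11.95 at 72 h, against 10.65, 6.38 and 8.49 untreated (3.22 ± 0.64, adjusted p 0.000324). Its untreated arrays spread over 4 log2 units, and the 72 h arrays lay above all of them. The hypoxia genes went both ways: CA12 and CA9, carbonic anhydrases, fell by 2.09 ± 0.12 and 1.80 ± 0.24, and VEGFA rose by 1.84 ± 0.19 (3.57-fold).

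Of 37 interferon-stimulated and antigen presentation genes 32 were tested, 19 were lower and 2 higher, with a median change of -0.52. IFITM3 and IFITM2, membrane proteins that block virus entry, fell, with changes of -3.36 ± 0.18 and -3.25 ± 0.16. They are near-identical neighbours, and their probe sets may share signal. IFITM3 stood at 7.94, 7.85 and 7.79 at 72 h, against 10.62, 11.71 and 11.31 untreated. IFIT1, IFIT2, IFI35 and the immunoproteasome subunit PSMB9 fell by 1.62 to 2.08. The 2 members that rose, IFI44 (1.37) and IRF7 (0.70), were named after their values were seen. Of 35 genes of the secretory pathway and the unfolded protein response, all tested, 14 were lower and 1 higher, with a median change of -0.16. XBP1, a factor that expands the endoplasmic reticulum, stood at 11.43, 11.56 and 11.50 at 72 h, against 13.36, 13.51 and 13.59 untreated (-1.99 ± 0.21, adjusted p 9.14e-08). CREB3L1, DNAJC3 and SEC24D fell by 1.88 ± 0.28, 1.24 ± 0.16 and 1.02 ± 0.19, TRIB3 by 0.88 ± 0.23 and CREB3L2 by 0.68 ± 0.11. The chaperones HSPA5 and HSP90B1, each with a change of 0.04, did not pass. The higher member, HERPUD1 (0.41), was named after its value was seen.

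What sets 72 h apart from the earlier exposure was asked by a direct comparison with the 24 h arrays, which does not use the untreated cells. Of the 14771 genes 1347 (9.12 percent) differed, 690 higher (4.67 percent) and 657 lower (4.45 percent) at 72 h, and the median change was 0.03. A change of at least 2-fold was reached by 223 genes (1.51 percent). The count depended on single arrays: 679 genes passed without 24 h replicate 1, and 881, 628 and 812 without 72 h replicate 1, 2 or 3. The authors' table marks 24 h replicates 1 and 3 and 8 h replicate 3 with r. Without these 3 arrays, an alternative chosen after seeing the data, 156 genes passed; it sets the 72 h arrays against 1 array at 24 h, which is assumed to vary like the other groups. Of the 5659 genes changed against untreated cells, 3780 were also changed in the same direction at 24 h, and both comparisons share the untreated arrays. Against untreated cells the number changed was 20 (0.135 percent) at 0.5 h, 80 (0.542 percent) at 1 h, 460 (3.11 percent) at 2 h, 1355 (9.17 percent) at 4 h, 3413 (23.1 percent) at 8 h, 4975 (33.7 percent) at 16 h and 5201 (35.2 percent) at 24 h. A 72 h and a 24 h array correlated at r 0.961 to 0.976.

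The largest late rises included IGFL2, NOX4 and LUM. IGFL2 stood at 13.23, 13.52 and 13.25 on the 72 h arrays, against 9.96, 9.46 and 9.11 on the 24 h arrays (3.82 ± 0.35, adjusted p 2.68e-07). NOX4, an oxidase that makes hydrogen peroxide, stood at 10.94, 11.37 and 11.43 at 72 h, against 8.50, 8.62 and 8.21 at 24 h (2.80 ± 0.17, adjusted p 5.07e-10). LUM stood at 9.65, 9.52 and 9.41 at 72 h, against 6.75, 7.52 and 6.61 at 24 h, close to zero signal (2.56 ± 0.27, adjusted p 1.91e-06). LUM had a change of 0.05 at 24 h against untreated cells, so its rise lay after 24 h. The lipid phosphatase gene PLPP4, the neuropeptide VIP, the channel KCNMA1, the granin SCG2 and HAS2, the hyaluronan synthase, rose by 2.04 to 2.41 between the 2 times. For SCG2, 24 h replicate 3 (12.11) lay just below the lowest 72 h array (12.24). In contrast IGFL1, the largest rise against untreated cells, had reached 14.52, 14.53 and 13.71 at 24 h and did not pass between the 2 times (0.41 ± 0.44, adjusted p 0.632).

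The largest late falls included the mucin MUC5B and the secreted proteins LCN2 and CST1. MUC5B was at 5.64, 5.64 and 6.61 at 72 h, against 11.25, 10.51 and 11.66 at 24 h (-5.17 ± 0.34, adjusted p 1.58e-09). LCN2 stood at 7.82, 6.11 and 6.77 at 72 h, against 11.15, 9.92 and 10.92 at 24 h (-3.77 ± 0.44, adjusted p 7.84e-06). CST1, a secreted cysteine protease inhibitor, stood at 9.01, 9.21 and 8.91 at 72 h, against 12.58, 12.37 and 12.82 at 24 h (-3.54 ± 0.41, adjusted p 6.78e-06). In each the 72 h arrays lay at least 2 log2 units below every 24 h array. SLPI, NTS, CFD, the complement factor D protease, and GPX2 fell by 3.06 to 3.24. VTN fell by 3.68 ± 0.58 (adjusted p 0.000319) but missed the threshold without the arrays marked r, with 1 array left at 24 h (-2.92, adjusted p 0.0702). CDH1 was lower at 72 h than at 24 h as well, by 0.92 ± 0.17 (adjusted p 0.00121). Among the lists, the largest counts at 72 h against 24 h were 11 lower of 50 in the aldo-keto reductase and NRF2 list, 11 lower of 32 in the interferon and antigen presentation list, 10 lower of 45 in the epithelial adhesion list and 8 higher of 35 in the matrix glycoprotein list. HMOX1 was the 1 member of the NRF2 list that was higher than at 24 h (1.52). The G2/M list had a median of 1.09 above 24 h with 1 gene called, CDC25B, which rose by 1.27 ± 0.23 between the 2 times.

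**Figure D5:**
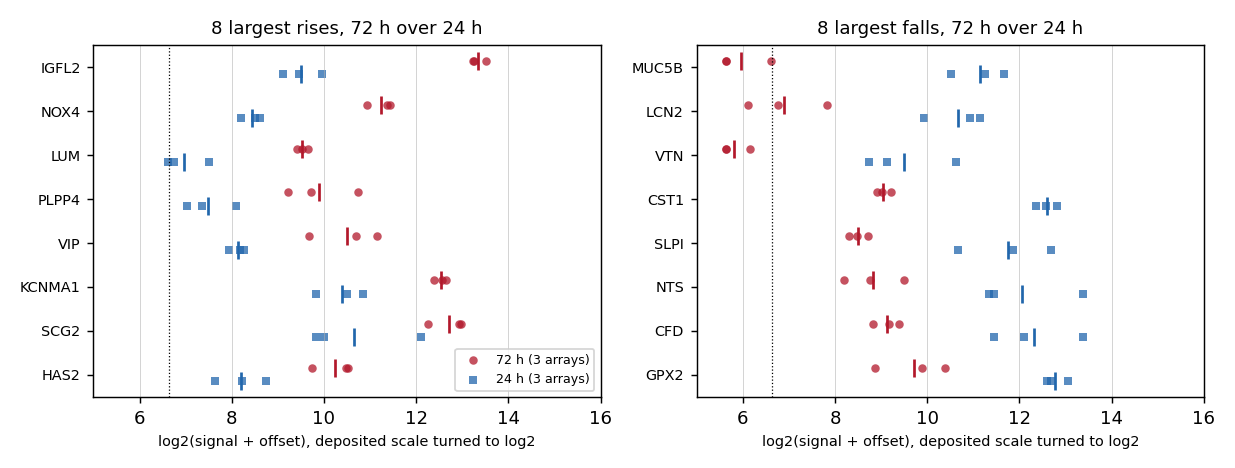
Log2 levels of the 8 largest rises (left) and 8 largest falls (right) at 72 h over 24 h; circles are the 3 arrays at 72 h, squares the 3 arrays at 24 h, ticks the group means, and the dotted line zero signal at 6.64. Genes were chosen among those whose groups do not overlap, and MUC5B and VTN lie at or below zero signal at 72 h.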

How the data were processed

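Members and gene lists were chosen with earlier results of these data known. Per the file headers, the authors took trimmed means of perfect-match minus mismatch probe differences, quantile-normalized them against 1 array and deposited log10 values with offsets; these were converted to log2. The authors also deposited p-values and fold ratios, not used for the tests here, and counts of detected probe sets per array. Of 54675 probe sets, 39321 named 1 gene (symbols updated through Entrez IDs for 38088); not used were 62 control probe sets, 14084 that had no symbol and 1208 that named more than 1 gene. Each of 19539 genes took its probe set of highest mean, preferring those not marked as cross-hybridizing. Genes above the array median on at least 2 arrays (14771) were tested with limma 3.58.1 (R 4.3.3; lmFit, eBayes with trend) over all 26 arrays in 9 groups, with Benjamini-Hochberg adjustment at 0.05. The labels number arrays by experiment, and deviations of same-numbered 72 h and untreated arrays correlated at 0.201, 0.0757 and 0.0488. Those of 72 h array 3 and untreated array 2 correlated at 0.133, and those of 72 h array 2 and untreated array 3 at -0.0309. The array names of untreated numbers 2 and 3 run in the opposite order to the other groups. Their experiment numbers are thus uncertain, and the block was also fitted with these 2 exchanged. Named genes are the 15 largest rises and 15 largest falls with groups apart, the 8 largest each way against 24 h, up to 6 called and up to 2 uncalled members of each list, and a set of reference genes; others are said to be named after their values were seen. The number of arrays limits the precision. Some list members and named genes are counted but not reported here by name.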

Additional observations from a re-analysis of the deposited data

Results flagged for a closer look

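A direct test between 72 h and 24 h of exposure passed for 16 named genes. These genes were named for that difference, and the values describe it. Given as log2 level at 72 h minus 24 h, the higher ones were IGFL2 at 3.825, NOX4 at 2.799, LUM at 2.563, PLPP4 at 2.407, VIP at 2.373, KCNMA1 at 2.131, SCG2 at 2.076 and HAS2 at 2.04. The lower ones were MUC5B at -5.169, LCN2 at -3.767, VTN at -3.676, CST1 at -3.544, SLPI at -3.245, NTS at -3.244, CFD at -3.174 and GPX2 at -3.057. Arrays that do not overlap between the 2 times were part of the rule that named them.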

How the results depend on the processing

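Of 174 named genes called at 72 h against untreated cells, 160 kept direction and call under all 21 alternatives, 14 lost the call under some and 0 reversed; 7 of the 14 lost it only at a stricter p or a 2-fold minimum. SNAI1, which did not pass, turned to -0.13 without untreated replicate 1 and -0.11 without 72 h replicate 1, and lay between -0.13 and 0.21 with 1 array left out. TGFBR2 passed with the mean of probe sets (-0.76, adjusted p 0.0186) and in a fit of only the groups compared (adjusted p 0.0313), where KRT80 missed (0.0745). The count of 5659 was 6291 with the experiment number as a replicate block, 6514 with untreated numbers 2 and 3 exchanged, 4727 to 5193 with 1 array left out, and 1690 (812 higher, 878 lower) at 2-fold or more. The block changed no call of a named gene. The 1347 genes at 72 h against 24 h were 1972 with the block and 2278 (1230 higher, 1048 lower) with it exchanged. They were 539 (237 and 302) at an adjusted p under 0.01, 223 (101 and 122) at 2-fold or more and 156 (57 and 99) without the 3 arrays marked r, which leaves 1 array at 24 h, assumed to vary like the other groups. With 1 array left out they were 628 to 1147, of which 290 to 593 were higher and 338 to 554 lower. The cause was not tested. Of 1092 list counts under the alternatives 1022 stayed within 1.5 times and 70 moved; the G2/M genes lower, 3 in all, were 21 with the exchanged block. Genes near zero signal have only a compressed change on this scale, and 4768 of 19539 genes were not tested.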

Other observations

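Some neighbouring genes of a family moved together at 72 h against untreated cells. These runs were picked after their values were seen, as at least 3 adjacent measured genes that changed by at least 2-fold in 1 direction. The cystatin genes CST3, CST4, CST1 and CST2, secreted inhibitors of cysteine proteases on chromosome 20, had log2 changes of -1.05, -3.33, -4.25 and -3.44. The glutathione transferase genes GSTM4, GSTM2 and GSTM1 on chromosome 1 had changes of -2.06, -1.50 and -1.72. The homeobox genes HOXD11, HOXD10 and HOXD9 on chromosome 2, which pattern the body axis, rose by 2.70, 3.54 and 1.15. Signal shared between the probe sets of related genes was not tested.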
